A study of Mus musculus with 18 samples.

Results

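The Ifi200 genes are a family of interferon-inducible genes that lie side by side on mouse chromosome 1, and 10 of the 50600 genes counted in this series belong to the set described here: Ifi203, Ifi204, Ifi206, Ifi207, Ifi208, Ifi209, Ifi213, Ifi214, Mndal and Aim2. They were chosen by name, as the named Ifi200 members and Aim2, after Ifi208 had been seen to be far higher in thymic CD25 KO Tregs than in thymic WT Tregs. Levels in that comparison are therefore given as a description, without a test. The splenic comparison, which the choice did not use, is tested.

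The counts came from RNA-seq of FACS-purified Foxp3+ regulatory T cells (Tregs) of 18 mice, all labelled C57BL/6, with 1 mouse per sample. Thymic CD25 KO Tregs (n = 5) came from “cured” CD25cKO mice (CD25flox/Foxp3-YFP/Cre) at 3 to 4 weeks of age, in which Cre is expressed from the Foxp3 locus and which had been given WT splenocytes intravenously as neonates. Thymic WT Tregs (n = 5) came from Foxp3/RFP reporter mice of the same age, for which neither Cre nor a transfer is described. Splenic CD25 KO Tregs (n = 4) came from CD25flox/Foxp3eGFP-Cre-ERT2/R26Y mice in which tamoxifen at 7 to 10 weeks of age had activated the Cre and a YFP reporter, and splenic WT Tregs (n = 4) came from tamoxifen-treated CD25 WT reporter controls. Both were harvested 10 to 14 days later. The thymic KO and WT mice thus differed in reporter line and in the neonatal transfer as well as in CD25, which cannot be told apart here, any difference between the lines in the Ifi200 cluster itself included, and tissue, age, mouse model, tamoxifen and the date in the column names changed together between thymus and spleen, so that these cannot be told apart either.

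Ifi200 proteins are built from a pyrin domain, which binds other pyrin domains, and HIN domains, which bind DNA, and some members have only one of these. Type I interferon induces many of them in leukocytes. Aim2 senses double-stranded DNA in the cytosol and assembles an inflammasome through the adaptor ASC (Pycard) and caspase-1. Ifi204 (p204) has been linked to DNA sensing in macrophages, Mndal and Ifi203 encode nuclear proteins, and the products of Ifi206, Ifi207, Ifi208, Ifi209, Ifi213 and Ifi214 are less well characterized. The cluster has grown by duplication, its gene content varies between inbred mouse strains, and its members are partly near-identical in sequence.

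Total counts were 17239774 to 23993674 per thymic sample and 25258341 to 32639570 per splenic sample, so that 3 counts corresponded to at most 0.163 CPM (counts relative to library size, scaled to a fixed total) in the thymus and 0.128 CPM in the spleen. Il2ra, which encodes CD25, was lower in every CD25 KO sample than in every WT sample of the same tissue. It reached 95.8, 96.1 and 104.8 CPM in thymic KO mice 5, 3 and 1 but 233.7 and 279.7 CPM in mice 4 and 2, against at least 524 CPM in thymic WT mice. The paper reports that KO Tregs keep some Il2ra transcripts and that these lack the excised exon. Counts per gene therefore do not measure functional CD25. Foxp3, Cd4 and Cd3e were expressed in all groups, and Foxp3 ranged from 203.6 to 577.4 CPM. The recombination gene Rag1 had 322 to 2037 counts in thymic samples and 0 in all splenic ones.

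The members occupied a stretch of chromosome 1 (GRCm38) from the start of Aim2 at 173350879 to the end of Ifi203 at 173942672. Ifi206, Ifi214, Ifi213, Ifi209, Ifi208, Ifi207, Ifi204 and Mndal lie between them in that order. Of these, Aim2, Ifi209 and Ifi208 are on the plus strand. To show how alike neighbouring members are, the RefSeq promoters (GRCm38.p6, 250 bases before to 50 bases after the annotated start) of the 3 members Ifi206, Ifi208 and Ifi213 are printed 5′ to 3′ on the strand of the gene. Capitals mark the letters GAAANNGAA, the core of an interferon-stimulated response element.
Ifi208, plus strand, chr1:173673415-173673714: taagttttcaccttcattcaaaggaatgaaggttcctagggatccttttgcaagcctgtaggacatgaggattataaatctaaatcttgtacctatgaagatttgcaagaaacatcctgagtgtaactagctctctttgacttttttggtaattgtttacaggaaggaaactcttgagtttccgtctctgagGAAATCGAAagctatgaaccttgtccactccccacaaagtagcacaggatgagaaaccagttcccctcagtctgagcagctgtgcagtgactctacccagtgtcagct
Ifi206, minus strand, chr1:173491269-173491568: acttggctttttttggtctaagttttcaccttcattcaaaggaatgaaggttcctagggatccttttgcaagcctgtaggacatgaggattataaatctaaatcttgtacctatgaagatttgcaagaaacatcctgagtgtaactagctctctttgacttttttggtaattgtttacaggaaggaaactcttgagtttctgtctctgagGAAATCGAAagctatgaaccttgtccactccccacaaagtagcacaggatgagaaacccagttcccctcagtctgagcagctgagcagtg
Ifi213, minus strand, chr1:173599223-173599522: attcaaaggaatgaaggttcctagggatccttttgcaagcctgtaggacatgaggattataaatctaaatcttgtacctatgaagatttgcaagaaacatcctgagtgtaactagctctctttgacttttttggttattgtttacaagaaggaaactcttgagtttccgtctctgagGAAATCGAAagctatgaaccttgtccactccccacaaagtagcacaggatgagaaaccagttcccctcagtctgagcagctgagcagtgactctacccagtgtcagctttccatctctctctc

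Over the aligned parts of these promoters, Ifi208 matched Ifi206 at 279 of 281 positions (99.3%) and Ifi213 at 282 of 285 positions (98.9%), and all 3 held these letters once, before the start. Ifi209 and Ifi214 matched at 287 of 299 positions (96.0%), and 1 promoter each of Ifi203 and Mndal at 282 of 289 (97.6%). RefSeq promoters were at hand for 9 of the 10 members, the exception being Ifi204. The letters GAAANNGAA, searched on both strands, were found in 8 of the 11 member promoters, against 8.56% of all 32851 promoters of the same length. Those 8 promoters belonged to 7 of the 9 members, all but Ifi209 and Aim2. Since several of them are near copies of each other, they are not separate cases. The letters TTCNNNGAA, a gamma-interferon activated site read alike on both strands, were found in none of the 11 member promoters and in 8.30% of all promoters.

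Likeness extended into the transcripts, which matters for how reads were assigned. Of the 75-base stretches of annotated Ifi208 transcripts (75 bases is the read length), 11.8% were also present in another gene, 475 of them in Ifi213 and 231 in Ifi206. The shared portion was 17.6% for Ifi206 and 8.1% for Ifi213. Ifi209 shared 23.1% of its stretches, all with Ifi214. Ifi204 shared 13.2%, mostly with Ifi211, which shared 63.6% of its own. Aim2 shared none. The annotated Mndal exons overlapped those of neighbouring genes on the same strand over 155 bases (4.3%). How the counting program treated reads with several matches, and whether it used strand, is not given in the sources used here, so counts of these relatives are uncertain to that extent.

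Ifi208 was lowest in thymic WT Tregs and several times higher in each of the other 3 groups. It had 352, 450, 579, 272 and 501 counts in thymic WT mice 1 to 5 and 2258, 4472, 1690, 2210 and 5776 counts in thymic CD25 KO mice 1 to 5. The lowest KO mouse lay well above the highest WT mouse. Scaled levels were 19.2 ± 5.03 CPM in thymic WT and 162.7 ± 91.0 CPM in thymic CD25 KO (SD, n = 5 each). This is a difference of 3.10 on the log2 scale (SE 0.341), or 8.58-fold. Within the KO group, mice 2 and 5 had 206.0 and 303.2 CPM, whereas mice 1, 3 and 4 had 112.8, 92.0 and 99.5 CPM. In the spleen, Ifi208 had 2902, 3488, 2977 and 2737 counts in WT mice and 3133, 3238, 2757 and 3725 counts in CD25 KO mice. The splenic groups overlapped, at 118.8 ± 10.3 and 114.6 ± 6.76 CPM (SD, n = 4 each).

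**Figure D1:**
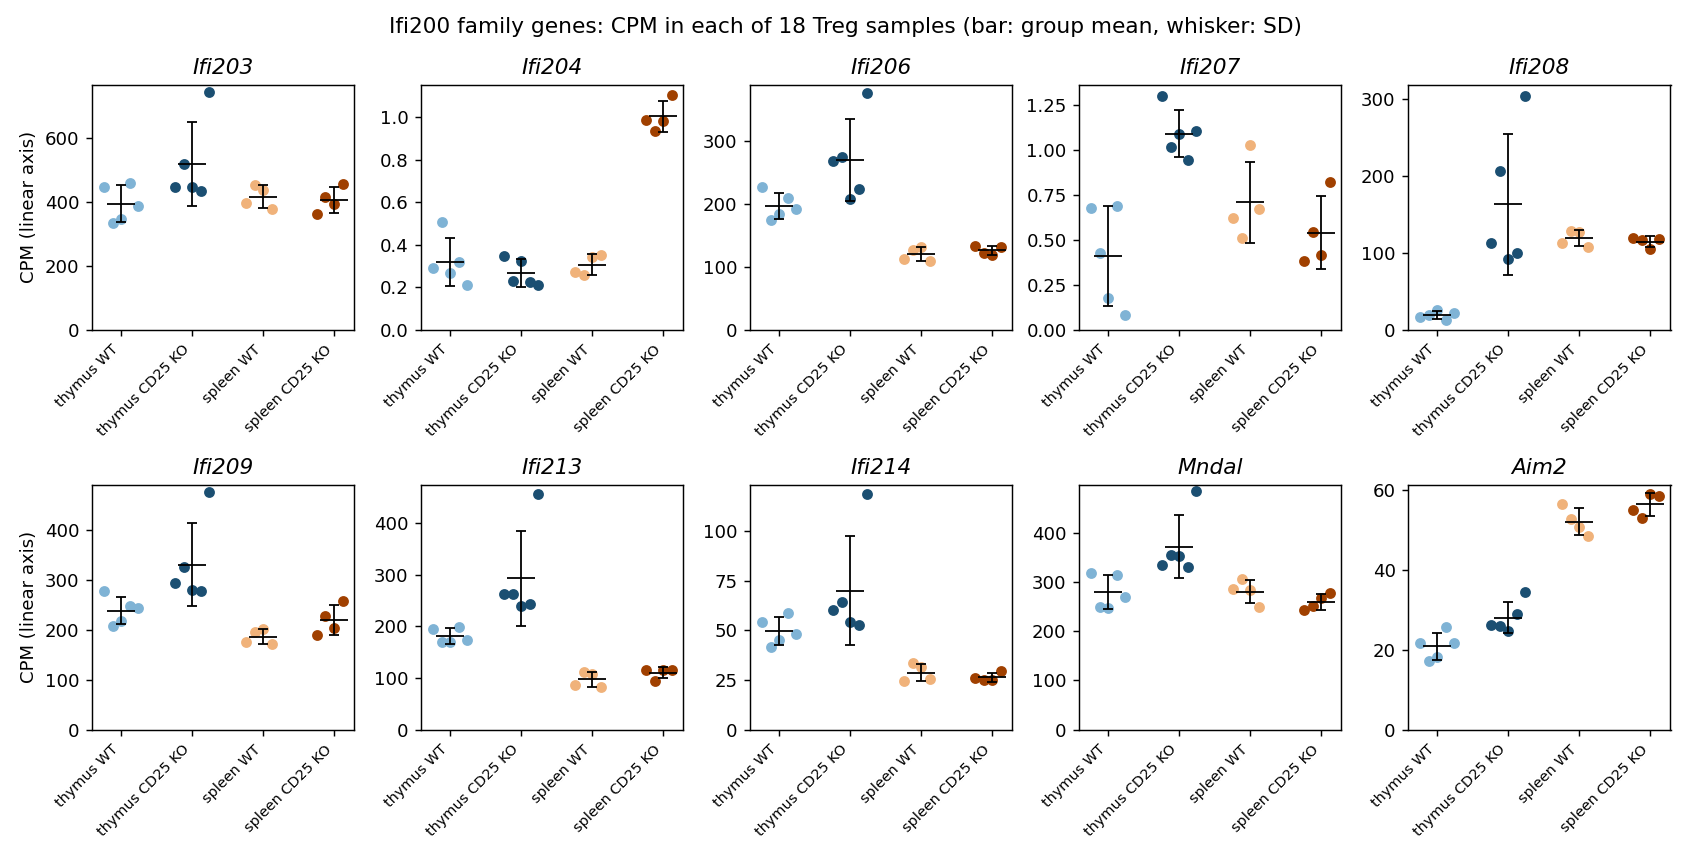
CPM (linear axis from 0) of each of the 10 genes in 18 samples; each point is 1 mouse, the bar is the group mean and the whisker the SD (n = 5 per thymic group, n = 4 per splenic group). Ifi208 was at 12.4 to 26.0 CPM in thymic WT mice and at 92.0 CPM or above in all other mice, and Ifi204 was highest in the 4 splenic CD25 KO mice.

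Its closest sequence relatives did not show that pattern. Ifi206 was at 197.0 ± 20.9 CPM in thymic WT and 269.9 ± 65.2 CPM in thymic KO mice, and Ifi213 at 181.7 ± 14.7 and 293.3 ± 91.6 CPM. For every 100 reads of Ifi206 and Ifi213 together, thymic WT mice had 3.04 to 7.36 reads of Ifi208. Thymic KO mice had 20.5 to 38.4, with mice 1, 3 and 4 at 21.2, 20.5 and 21.2 and mice 2 and 5 at 38.4 and 36.5. Splenic WT mice had 53.2 to 56.5 and splenic KO mice 44.5 to 54.2. The 4 groups of this ratio did not overlap except the splenic ones with each other. Mice 2 and 5 did not stand together in Il2ra, which was 279.7 CPM in mouse 2 and 95.8 CPM in mouse 5. Summed over Ifi206, Ifi208 and Ifi213, which removes any exchange of reads among them, the mean was 397.9 ± 31.5 CPM in thymic WT and 725.9 ± 241.6 CPM in thymic KO mice, a ratio of 1.82.

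**Figure D2:**
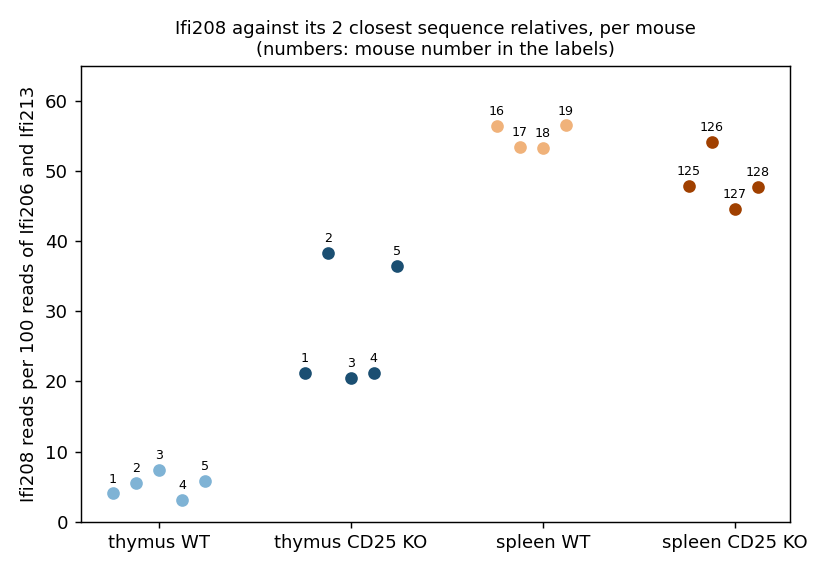
Reads of Ifi208 per 100 reads of Ifi206 and Ifi213 in each mouse; the number beside each point is the mouse number. Thymic WT mice lie at 3.04 to 7.36, thymic CD25 KO mice fall near 21 (mice 1, 3 and 4) and above 36 (mice 2 and 5), and splenic mice lie at 44.5 or above.

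The other members except Ifi204 were also higher on average in thymic CD25 KO Tregs, by less. Ifi204 was at 0.321 ± 0.113 CPM in WT and 0.268 ± 0.0647 CPM in KO mice. Of the 10 members, 9 passed the filter on low counts in the thymus, and the log2 fold changes of all 9 were positive, with a median of 0.486 against -0.002 over all genes tested. Besides Ifi208, they ranged from 0.408 (SE 0.152) for Ifi203 to 0.707 (SE 0.159) for Ifi213 among the well-expressed genes. Without thymic KO mouse 5 this range was 0.237 for Ifi214 to 0.492 for Ifi213, with Ifi203 at 0.243 and Ifi208 at 2.75, and with the trend of fold change with GC content removed it began at 0.091 for Ifi203. Aim2 was at 20.9 ± 3.38 CPM in WT and 28.1 ± 3.94 CPM in KO mice, a log2 fold change of 0.44 (SE 0.124). By the threshold used for the splenic comparison (FDR below 0.01), only Ifi208 was past it, where 6.16% of all 16986 genes tested were past it in either direction and 3.17% in the higher direction. Since this contrast chose the genes, nothing is read from that count.

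Groups of mice did not overlap, with KO higher, for Ifi207, Ifi208, Ifi209, Ifi213 and Mndal, where 7.20% of all genes tested separated in that direction, a count that the choice of genes also touches. Thymic KO mouse 5 was the highest of its group for 8 of the 10 members. Ifi213, for example, was at 456.0 CPM in that mouse and at 239.6 to 263.8 CPM in the other KO mice, and the WT range ended at 199.2 CPM. Ifi209 separated by little: the highest WT mouse had 278.3 and the lowest KO mouse 278.6 CPM. After removal of the trend of fold change with GC content, which was steep in the thymus (Spearman's rho -0.40 across 16945 genes, which are not independent), the log2 fold change of Ifi208 was 3.02, and those of the 7 other abundant members ran from 0.091 for Ifi203 to 0.437 for Ifi213, with Mndal at 0.142, Ifi214 at 0.165 and Ifi209 at 0.204.

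A pair of members were rare in every group. Ifi207 had 14, 10, 4, 15 and 2 counts in thymic WT mice and 26, 22, 20, 21 and 21 counts in thymic KO mice. It was the member with the second largest thymic log2 fold change, 1.43 (SE 0.393). Too few thymic WT mice reached the filter on low counts, so that Ifi207 entered the thymic fit only through the KO mice. In the spleen it had 14 to 24 counts in WT and 10 to 26 counts in KO mice. Ifi204 had 5 to 12 counts in thymic WT and 4 to 7 counts in thymic KO mice, too few for the thymic fit.

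Genes next to Ifi208 shared its distribution. Gm18752, a transcribed pseudogene on the same strand, starts at position 173701385, shortly after the end of Ifi208 at 173698395. It was at 0.754 ± 0.246 CPM in thymic WT, 5.06 ± 3.11 in thymic KO, 4.17 ± 0.388 in splenic WT and 3.53 ± 0.945 in splenic KO Tregs. Its counts were 11 to 23 in thymic WT and 44 to 191 in thymic KO mice. Gm7871, the next pseudogene, was at 0.0976 ± 0.0818, 0.709 ± 0.474, 0.572 ± 0.201 and 0.569 ± 0.225 CPM in the same order. It had 0 to 5 counts in thymic WT and 8 to 29 counts in thymic KO mice, too few for the thymic fit. Ifi207 follows. On the other side, Ifi209, which ends 25.7 kb before Ifi208, had a thymic log2 fold change of 0.486 (SE 0.143). Gm18752 shares 192 of the 75-base stretches of Ifi206 and none of those of Ifi208. Genes within 5 Mb on either side of the cluster were counted together with those inside it, members left out. In the thymus, 3 of 97 tested were past the threshold (3.09%), 1 higher, which was Gm18752, and 2 lower, against 8.47% of chromosome 1. The nearest tested gene past the threshold outside the cluster was Tagln2, an actin-binding protein, with a log2 fold change of -1.17 (SE 0.201).

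**Figure D3:**
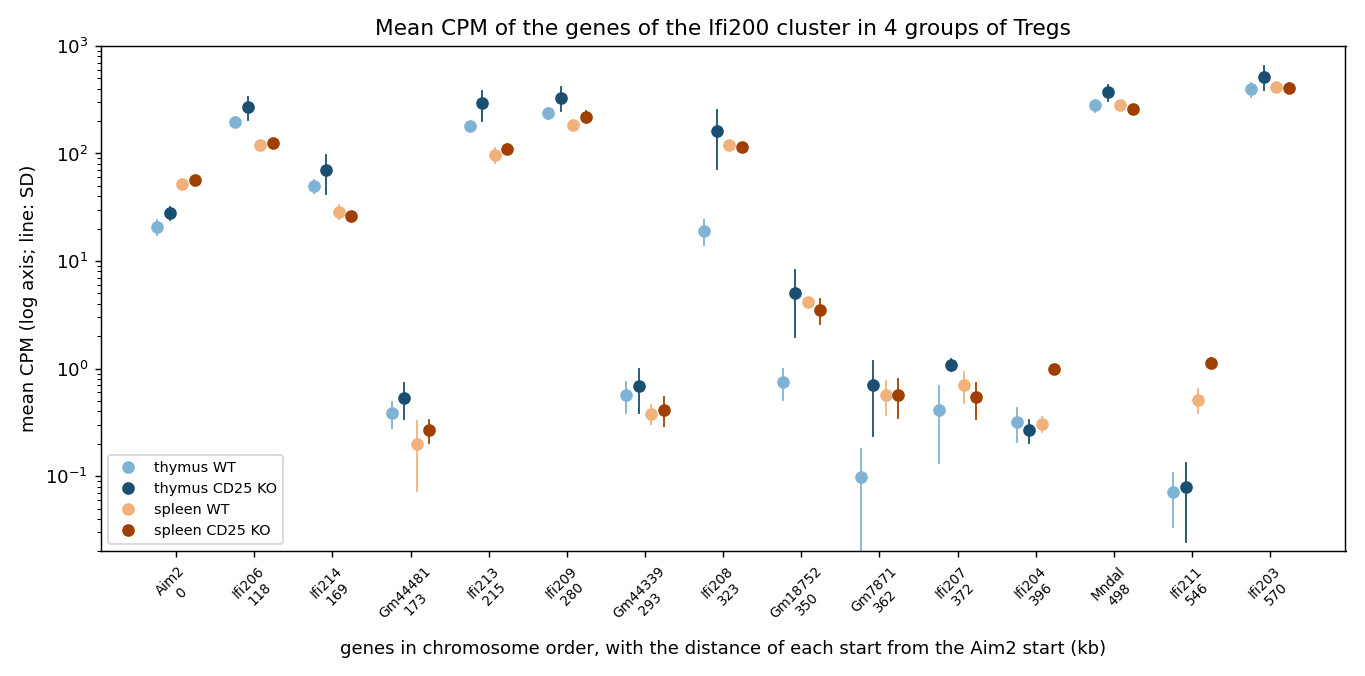
Mean CPM (log axis, line: SD) of the members and of the other counted genes between them, in chromosome order with the distance of each start from that of Aim2 in kb, for the 4 groups. Thymic WT lies below the 3 other groups at Ifi208, Gm18752 and Gm7871, which are neighbours. It also has the lowest mean at Aim2, Ifi207, Ifi211 and Ifi203, there closer to the next group. At Ifi206, Ifi214, Ifi213 and Ifi209 it lies above both splenic groups.

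Over all 18 samples, the genes whose log2 CPM followed Ifi208 most closely among 12928 genes with a mean log2 CPM of at least 1 were Gm18752 (Pearson's r = 0.976), Hist1h4m (0.947), Mtfmt (0.902), Gm30373 (0.900) and E230034D01Rik (0.896). These values describe samples that fall into 4 groups and share a tissue within them. Hist1h4m, a histone H4 gene on chromosome 13, had 0 to 2 counts in thymic WT mice and 312 to 811 counts in thymic KO mice, 214 to 278 in splenic WT and 325 to 523 in splenic KO mice. Gm30373 and E230034D01Rik, noncoding genes next to each other on chromosome 9, were at 0.758 ± 0.250 and 2.43 ± 0.319 CPM in thymic WT mice and at least 5.97 and 11.9 CPM on average in each other group. Mtfmt, which formylates the initiator methionyl-tRNA of mitochondria, differed by less, at 16.8 ± 0.673 CPM in thymic WT and 23.1 to 24.4 CPM on average in the other groups. With group means removed, the closest were Sbds (r = 0.874), Gdap2 (0.873), Nfyb (0.866), again Gm18752 (0.866) and Parp9 (0.850).

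In the adult spleen, where CD25 was removed from mature Tregs, 1 member rose in CD25 KO mice and the other 9 did not pass the test. This comparison asks whether loss of CD25 outside the thymus shifts these genes. By the quasi-likelihood test of edgeR (p-values adjusted after Benjamini and Hochberg), 1 of the 10 members passed FDR below 0.01. Of 17463 genes tested, 9.45% passed in either direction and 5.90% were higher, so that the members' count is near the background. The member that passed was Ifi204, which had 7, 7, 8 and 9 counts in splenic WT mice and 26, 26, 26 and 35 counts in CD25 KO mice. The groups did not overlap, as was so with KO higher for 11.2% of all genes tested. Its level rose from 0.306 ± 0.0496 to 1.00 ± 0.0724 CPM (SD, n = 4), a log2 fold change of 1.71 (SE 0.271, edgeR adjusted p = 0.000405). No splenic WT mouse reached the filter on low counts for Ifi204. It thus entered this test only through the KO mice, where it was high. Without that filter its log2 fold change was 1.71 (SE 0.345, edgeR adjusted p = 6.71e-05). In bulk RNA, more cells that express a gene and more RNA per cell cannot be told apart.

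Ifi204 remained a rare transcript in KO mice, at 0.282 CPM per kb of exon against 71.7 for Mndal. Ifi211, a relative of Ifi204 with which it shares 393 of the 75-base stretches, also rose, from 8 to 17 counts in splenic WT to 28 to 35 counts in KO mice (log2 fold change 1.11, SE 0.257, edgeR adjusted p = 0.00672). Summed over both genes, the level went from 0.821 ± 0.115 to 2.13 ± 0.145 CPM, without overlap, a ratio of 2.60. With a minimum of 10 counts in every sample, Ifi204 was not tested, which left no member past the threshold. Lyz2, a lysozyme of macrophages and the sole myeloid marker past the threshold of 7 tested out of 12, also rose in splenic KO mice, from 6.17 ± 2.34 to 12.6 ± 1.69 CPM (edgeR adjusted p = 0.00132). The summed level of the 12 myeloid markers was 20.6 to 26.8 CPM in splenic WT and 24.5 to 32.1 CPM in splenic KO mice, with Mpo and S100a9 at 0 in all WT samples. The group means of Lyz2 differed by more than this sum did at either end of its range. The list did not move as a whole with Lyz2: 2 of the 7 tested markers had a positive log2 fold change, and the median was -0.23 against -0.006 over all genes. Csf1r, the receptor for macrophage colony-stimulating factor, was at 6.45 CPM in WT and 5.48 CPM in KO mice on average (edgeR adjusted p = 0.41). The part of these cells in the Ifi204 difference was not tested.

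For Ifi208, the splenic log2 fold change was -0.05 (SE 0.0646, edgeR adjusted p = 0.646). Among the other abundant members the values ran from -0.119 (SE 0.0962) for Ifi214 to 0.239 (SE 0.0818) for Ifi209, which had the lowest adjusted p of those not called, 0.0568 in edgeR's test. Ifi209 had 172.2 to 202.5 CPM in WT and 189.8 to 257.3 CPM in KO mice, so that the groups overlapped. Aim2 was at 52.2 ± 3.47 CPM in WT and 56.5 ± 2.83 CPM in KO mice (log2 fold change 0.115, SE 0.0605, edgeR adjusted p = 0.219). The median log2 fold change of the 10 members was 0.022 against -0.006 over all genes, and their summed level was 1302 ± 109 CPM in WT and 1323 ± 87.3 CPM in KO mice. In the thymus the sum was 1384 ± 157 CPM in WT and 2047 ± 549 CPM in KO mice, or 1364 ± 161 and 1885 ± 462 CPM without Ifi208. Whether the effect of CD25 loss differs between the tissues was not tested, because the thymic contrast chose the genes.

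**Figure D4:**
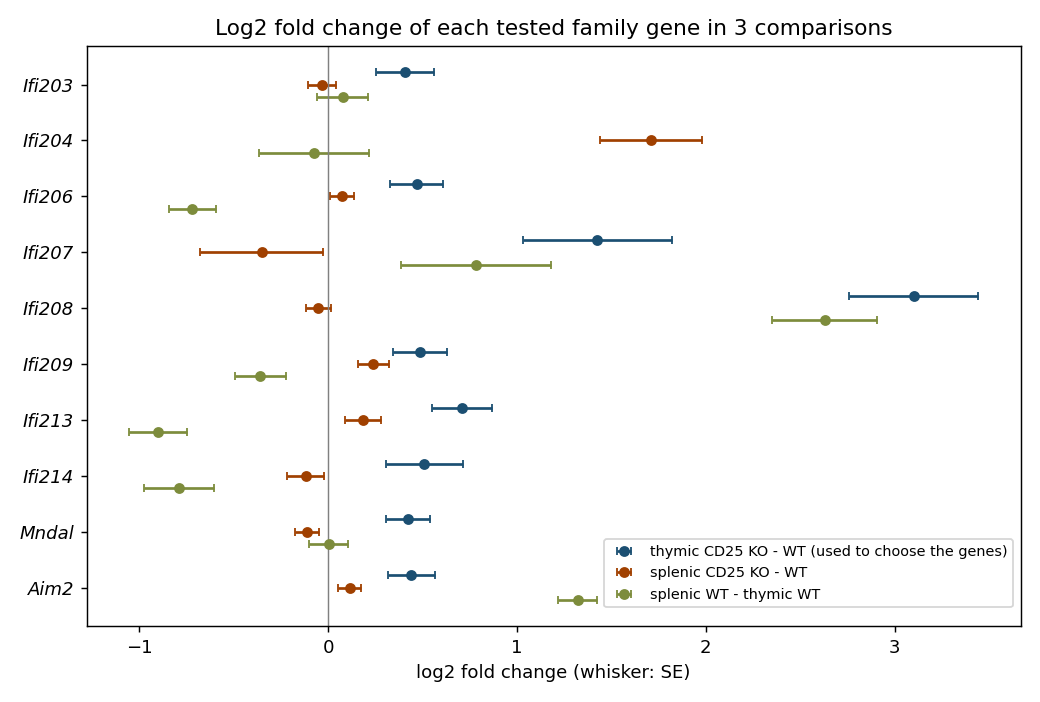
Log2 fold change of each tested member in 3 comparisons (points) with its SE (whiskers): thymic CD25 KO minus WT, which served to choose the genes, splenic CD25 KO minus WT, and splenic WT minus thymic WT. Ifi208 is near 0 in the splenic comparison and at 3.10 and 2.63 in the comparisons that involve thymic WT, and Ifi204, not tested in the thymus, is at 1.71 in the spleen.

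Between splenic and thymic WT Tregs, Aim2 was higher and Ifi206, Ifi213 and Ifi214 were lower in the spleen, in a comparison in which a large share of all genes passed the test. The 2 WT groups were compared by edgeR in a fit to the whole table of 18 mice, and 5 of 10 members passed FDR below 0.01, 2 higher and 3 lower in the spleen. The 2 higher were Aim2 and Ifi208. For Ifi208, the choice of genes used the same thymic WT samples, so its place in this count is not a test. Of all 18686 genes tested, 40.4% passed in this comparison, 21.0% higher and 19.5% lower, so that the members' count is near the background. The median log2 fold change of the members was -0.036 against 0.013 over all genes. Aim2 was higher in splenic WT mice, at 56.7, 52.8, 50.9 and 48.5 CPM against 21.7, 17.2, 18.2, 25.7 and 21.8 CPM in thymic WT mice, a log2 fold change of 1.32 (SE 0.104, edgeR adjusted p = 1.63e-09). The groups did not overlap. Ifi208 had a log2 fold change of 2.63 (SE 0.277). Its thymic WT samples are those that drew attention to it, so that this value is a description.

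Ifi206, Ifi213 and Ifi214 were lower in splenic WT Tregs. Ifi206 was at 112.2, 127.5, 130.8 and 108.8 CPM in splenic and at 174.0 to 226.4 CPM in thymic WT mice (log2 fold change -0.72, SE 0.125, edgeR adjusted p = 6.94e-05). Ifi213 was at 82.0 to 111.6 CPM in splenic and 169.3 to 199.2 CPM in thymic WT mice (-0.90, SE 0.153, edgeR adjusted p = 5.29e-05), and Ifi214 at 24.7 to 33.3 and 41.5 to 58.9 CPM (-0.79, SE 0.186, edgeR adjusted p = 0.00133). None of these ranges overlapped. Thus Ifi208 was on the opposite side from Ifi206 and Ifi213, with which it shares reads and nearly all of its promoter sequence. Ifi203 (0.08), Ifi204 (-0.07), Ifi207 (0.79), Ifi209 (-0.36) and Mndal (0.004) did not pass, with edgeR adjusted p of 0.657, 0.862, 0.104, 0.0294 and 0.979. In a fit of the 9 WT mice alone Ifi209 passed as well (-0.37, SE 0.0795, edgeR adjusted p = 0.00109).

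Per kb of exon, Mndal was the most abundant member in thymic WT Tregs, at 77.2 ± 9.52 CPM per kb (SD, n = 5). Ifi209 (67.3 ± 7.85), Ifi206 (64.5 ± 6.84) and Ifi203 (59.0 ± 8.54) followed. Mndal and Ifi209 differed by slightly more than the SD of either, whereas Ifi209, Ifi206 and Ifi203 each lay within the spread of the next. Next came Ifi213 at 26.6 ± 2.16, then Ifi214 at 6.13 ± 0.858 and Aim2 at 5.97 ± 0.965, which did not differ beyond their spread, and Ifi208 at 3.65 ± 0.957. In splenic WT Tregs, Mndal (77.4 ± 6.45), Ifi203 (62.2 ± 5.26), Ifi209 (52.6 ± 4.19) and Ifi206 (39.2 ± 3.58) stood before Ifi208, the fifth at 22.6 ± 1.95. Aim2 (14.9 ± 0.990) and Ifi213 (14.2 ± 2.19) came next, within their spread of each other, and Ifi214 was at 3.54 ± 0.534. Ifi204 and Ifi207 were below 0.32 CPM per kb on average in every group.

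Within groups, the well-expressed members varied together from mouse to mouse, and Ifi208 did so least. Over 18 samples with group means removed, Pearson's r of log2 CPM among 8 members (28 pairs, Ifi204 and Ifi207 left out) ran from 0.106 to 0.959 with a median of 0.796. The 7 pairs with Ifi208 lay between 0.106 (Aim2) and 0.634 (Ifi206). All these values include thymic KO mouse 5, the highest of its group for 8 of the 10 members. Some pairs also share 75-base stretches, such as Ifi209 with Ifi214 and Ifi203 with Mndal. The weight of either in r was not tested. As a share of all reads of the 10 members, Ifi208 took 0.81 to 2.07% in thymic WT, 5.41 to 10.1% in thymic KO, 8.97 to 9.29% in splenic WT and 8.09 to 9.56% in splenic KO mice. Ifi203 took the largest share in every group, 25.4% to 32.0% on average.

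Interferon-stimulated genes outside the family, taken from a list chosen with earlier results of these data known, were counted in the same comparisons. Of 49 tested, 2 were higher in thymic KO, among them Ifit2 (log2 fold change 0.397, SE 0.0795), and 1 was lower, the oligoadenylate synthetase gene Oas3 (-0.647, SE 0.133), with a median of 0.051 against -0.002 over all genes (edgeR adjusted p of 0.00668 for Ifit2 and 0.00756 for Oas3). In the spleen, 5 of 49 were higher and 0 lower in KO. Those with the largest log2 fold changes were Ifi27l2a (0.407, SE 0.0613), Oas1a (0.379, SE 0.0786) and Slfn2 (0.324, SE 0.0604), and the median was 0.097. Between splenic and thymic WT, 30 of 49 were lower and 3 higher in the spleen, led by Oasl1 (-2.18, SE 0.167), Mx2 (-1.91, SE 0.151) and Ifit1 (-1.73, SE 0.176), with Oas1a (2.12, SE 0.180), Ifit1bl1 and Phf11b higher. The median was -0.430. Ifi206, Ifi213 and Ifi214 were thus on the side of most listed interferon-stimulated genes in that comparison, and Aim2 and Ifi208 were on the other side.

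Among genes of interferon reception and signalling, 20 of 22 were tested in the thymus. There, 2 were higher in KO, among them Irf1 (0.338, SE 0.0708), and the signalling inhibitors Socs1 (-0.915, SE 0.0671) and Socs3 (-0.801, SE 0.0928) were lower, with edgeR adjusted p from 1.28e-05 to 0.00811. In the spleen, 21 were tested. Ifng (1.25, SE 0.156), Ifngr1 (0.552, SE 0.0822) and Jak2 (0.476, SE 0.0543) were higher, and Socs1 (-0.449, SE 0.0646), Ifngr2 (-0.438, SE 0.0740) and Ifnar1 (-0.225, SE 0.0494) were lower, with edgeR adjusted p from 2.15e-05 to 0.00485. The medians were -0.022 in the thymus and -0.006 in the spleen.

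Of the genes of DNA sensing and inflammasomes listed, 26 of 28 symbols were in the table. In the spleen, 2 of 23 tested were higher in KO and none lower: Casp1, which the Aim2 inflammasome activates, went from 36.5 ± 3.64 to 62.0 ± 5.98 CPM (log2 fold change 0.767, SE 0.0802, edgeR adjusted p = 9.29e-06), and Casp4, which responds to cytosolic lipopolysaccharide, from 45.1 ± 6.17 to 75.7 ± 4.17 CPM (0.749, SE 0.0810, edgeR adjusted p = 1.31e-05). The median of the 23 was 0.073. In the thymus, 1 of 20 was lower, Tmem173, which encodes STING (-0.412, SE 0.0754, edgeR adjusted p = 0.00457), and 0 were higher. Between splenic and thymic WT, 11 of 23 were higher and 5 lower. Casp1 and Casp4 had log2 fold changes of 4.84 (SE 0.161) and 4.58 (SE 0.151), and Nlrp1b 3.60 (SE 0.170), on the same side as Aim2.

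Of the family members outside the chosen 10, 3 of 7 symbols were in the annotation. Ifi211 had 0 to 3 counts in thymic mice, and Ifi205 0 to 2 counts in any mouse. Ifi202b, which has HIN domains without a pyrin domain and is barely expressed in C57BL/6 mice, had 0 counts in 17 samples and 8 in thymic KO mouse 1.

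Markers of other cells moved as follows between the groups compared. In the thymus, none of the tested myeloid (6 of 12 listed), dendritic cell (7 of 8), CD8 and NK cell (5 of 7) or immature thymocyte (7 of 8) markers passed the threshold, and 1 of 4 tested B cell markers, Ighm, was lower in KO, at 57.9 ± 5.53 against 103.1 ± 10.8 CPM. The summed level of the 8 immature thymocyte markers was 173.7 to 339.5 CPM in thymic WT and 227.6 to 368.8 CPM in thymic KO mice. Of 18 genes of recirculating and effector Tregs, 9 were lower and 0 higher in thymic KO, with a summed level of 1019 to 1109 CPM against 1182 to 1313 CPM in WT. In the spleen, 14 of them were higher and 1 lower in KO. There, 2 of 6 tested B cell markers were higher in KO, Pax5 at 3.21 ± 0.373 against 1.55 ± 0.530 CPM and Ighm, and Cd74, Klrb1c and Themis, 1 each of the dendritic cell, CD8 and NK cell, and thymocyte lists, were also higher. The summed level of the 8 B cell markers was 437.4 to 545.4 CPM in splenic WT and 595.6 to 716.5 CPM in splenic KO mice, most of it Ighm. The part of these genes' cells in the levels of the family was not tested.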

How the data were processed

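The authors aligned reads of ribosome-depleted libraries (paired-end, 75 bases) to GRCm38 with STAR 2.5.0b and counted them per GENCODE M13 gene with featureCounts 1.5.0, per the labels and the methods, and deposited raw counts. Strand and multiple-match settings are not given in the sources used here. Symbols, coordinates and lengths came from GENCODE M21 (50376 of 50600 identifiers matched). Its models of 6 members are of a later version, and no column was left out.

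Counts were tested in R 4.3.3 with edgeR 4.0.16 (filterByExpr, TMM, quasi-likelihood test, Benjamini-Hochberg adjustment, FDR below 0.01), within each tissue for KO against WT and over 4 groups for splenic against thymic WT. DESeq2 1.42.0, which the authors used, was an alternative. SEs are the log2 fold change over the square root of F. CPM shown use TMM over 18 samples. The fits were tested on simulated counts.

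Members, lists and tests were chosen with earlier results of these data known. Named genes are all members, up to 3 called genes per list and direction, the 5 closest to Ifi208 on each scale, and neighbours; Gm7871, Hist1h4m's counts and the Ifi208 ratio were singled out after values were seen. Some genes called past those 3 (Ifit1bl1, Phf11b) are also named. Reads carry no molecular identifiers, so the 3-count floor covers counting error only. Samples are separate mice. A few listed genes are not reported here.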

Additional observations from a re-analysis of the deposited data

Results flagged for a closer look

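In 40 combinations of member and group, the highest or lowest mouse was compared with the rest by Dixon's test at the 95% level, of which chance flags about 1 in 20, and 7 were flagged. Members varied together within groups, so the 40 combinations are not independent, and neither are the 7 flags. In 5 of them the mouse was thymic CD25 KO mouse 5, which stood above the other 4 KO mice: Ifi203 was at 746.6 CPM against 436.0 to 519.4, Ifi209 at 475.9 against 278.6 to 326.7, Ifi213 at 456.0 against 239.6 to 263.8, Ifi214 at 118.6 against 52.7 to 64.3, and Mndal at 485.7 against 330.1 to 355.1 CPM. The summed level of the 50 listed interferon-stimulated genes also had its maximum, 8039 CPM, in the thymic KO group, whose median was 6125 CPM. The other 2 were low values in splenic KO mice: Ifi208 at 104.5 CPM in 1 mouse against 116.7 to 119.1, and Ifi213 at 94.2 CPM in another against 115.8 to 116.1 CPM.

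Ifi202b, which no comparison used, had 8 counts in thymic KO mouse 1, above the 3 counts taken as the floor, and 0 counts in the other 17 samples.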

How the results depend on the processing

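Ifi204 kept its call in the spleen in all 14 alternatives in which it was tested (log2 fold change 1.63 to 1.79). Alternatives that keep the filter on low counts let Ifi204 in only through the splenic KO mice, where it was high. Ifi206, Ifi213, Ifi214 and Aim2 kept their calls between WT tissues in all 16. Exceptions to the number of splenic members called (1) were no filter on low counts, which added Ifi209 (2), and at least 10 counts in every sample (0), which left Ifi204 untested. Of thymic members, 7 were past the threshold at FDR below 0.05, with DESeq2 and in the fit of all 18 samples, and 2 with upper-quartile scaling, no filter, and at least 10 counts in every sample. Since the thymic contrast chose the genes, nothing is read from these numbers of members. Over all genes, the thymic number (1047 of 16986 tested) was 3951 at FDR below 0.05, 2733 with DESeq2 and 2881 with 18 samples. It was 1248 with upper-quartile scaling, 1307 with no filter and 1127 with at least 10 counts in every sample. The splenic number (1651) was 3001 at FDR below 0.05 and 795 with 18 samples. Of thymic calls 539 of 1047 were higher in KO, and 64.7% with upper-quartile scaling. Leaving out 1 mouse gave 371 to 1087 thymic, 1099 to 1723 splenic and 6690 to 7211 between-tissue calls, and 1 to 2 thymic members (2 without KO mouse 5). Those without which the number fell by over 1.5 times were thymic WT mice 2 (380), 3 (401) and 5 (428), thymic KO mice 1 (406) and 3 (371), and splenic WT mouse 18 (1099).

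With the thymic mouse number as a replicate block, 209 genes were called, Ifi208 among them. The numbers did not pair the mice: same-numbered deviations correlated at -0.182 to 0.106, and 2 of 5 WT mice correlated best with the KO mouse of their own number.

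Summing genes that share reads was an alternative chosen after seeing the data. The log2 ratio was 0.867 in the thymus for Ifi206, Ifi208 and Ifi213 together, and 1.38 in the spleen for Ifi204 and Ifi211 together. In thymic WT mice, Ifi206 and Ifi213 made up 378.7 of the 397.9 CPM of the first sum. Its ratio is therefore not an estimate for Ifi208 alone. The cause was not tested where not stated. Depth limits Ifi204 and Ifi207, at 35 counts or fewer in every sample.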
